A study of Equus caballus with 24 samples.

Results

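The 10 core genes of the circadian clock, CLOCK, ARNTL, PER1, PER2, PER3, CRY1, CRY2, NR1D1, NR1D2 and DBP, were followed through the pituitary and the long bone of a small and a larger horse breed. They were taken by symbol from the 24232 genes of the read table, in which each symbol stands once, and all 10 passed the low-count filter in every comparison. RNA had been sequenced from 6 female Debao ponies (DPs) and 6 female Mongolian horses (MHs), 3 juveniles and 3 adults of each breed. Each animal gave a piece of the pituitary (P), the gland under the brain that releases growth hormone, and of the epiphysis, the end of a long bone (LB). This gave 24 libraries in 8 groups of 3, named by breed, tissue and stage (J, juvenile, under 3 years old, and A, adult, over 3 years old): DPPJ, MHPJ, DPPA and MHPA in the pituitary, and DPLBJ, MHLBJ, DPLBA and MHLBA in the long bone. No animal was treated or carried an engineered allele, and all were killed at a slaughterhouse. The time of day of sampling is not given in the sources used here, and a group may have been sampled at one hour or at several. Breed, stage and hour of sampling therefore cannot be told apart for genes that cycle over the day. The question put to the data was whether the groups differed in clock phase, and whether they did so alike in both tissues.

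The clock is a loop of transcription that turns over once a day in nearly every mammalian cell. CLOCK and ARNTL (also called BMAL1) form a pair of transcription factors that switches on the PER and CRY genes, whose proteins then gather and shut the pair down. The same pair switches on NR1D1 and NR1D2 (REV-ERB alpha and beta), repressors that act back on ARNTL, and DBP, a factor that carries the rhythm to output genes. ARNTL thus peaks when NR1D1 and DBP are low, NR1D1 and DBP peak close together, and the PER genes follow them. PER1 and PER2 also respond to glucocorticoid hormones and to other outside signals.

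Levels are given as RPKM, reads scaled for gene length and library depth, computed from the deposited read counts with a common TMM scaling of all 24 libraries. This puts genes and tissues on one scale, but the levels depend on the TMM factors. These ran from 0.960 to 1.24 in the pituitary and from 0.589 to 1.14 in the long bone. A difference between groups is a log2 fold change, the first group minus the second, with its standard error (SE). A gene was called changed where it changed more than 2-fold and edgeR's quasi-likelihood test gave P under 0.05 without adjustment, the threshold that the study used. Adjusted p means Benjamini-Hochberg over all genes tested in that comparison. Groups of 3 are too small for an exact two-sided permutation test, which cannot go below 0.1. The libraries held 11433209 to 23573036 reads on genes in the pituitary and 11616518 to 27007342 in the long bone.

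The tissue content of the libraries differed within and between the groups, and this is given before the clock genes because each result rests on it. Of 10 anterior pituitary markers listed, 7 were in the file. Their summed level was between 41918 and 54967 RPKM in DPPJ, but between 30.8 and 143 in MHPJ, where GH, PRL and POMC were each at most 7.61 RPKM. In the adults, replicate 1 of both breeds stood apart in the same way, at 1737 in DPPA and 31.3 in MHPA, against 28042 to 54105 in the other 4 adult libraries. The 8 genes of neural lobe, glia and neurons in the file summed to between 3710 and 8669 in MHPJ, 9574 in DPPA replicate 1 and 19050 in MHPA replicate 1, and to between 351 and 4000 elsewhere in the pituitary. MHPJ replicate 2 also held muscle genes (756 RPKM summed, against at most 10.6 in the other pituitary libraries). In the long bone, cartilage genes summed to between 2.22 and 4.69 RPKM in DPLBJ replicate 1, in all 3 MHLBJ libraries and in MHLBA replicates 2 and 3, and to between 58.2 and 4469 in the others. In bulk tissue, fewer cells of a type and less RNA per cell cannot be told apart.

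All 10 clock genes were expressed in both tissues. In the pituitary the order by median level over the 12 libraries was NR1D2 at 35.4 RPKM, CRY1 at 16.5, PER3 at 16.4, and then CLOCK, ARNTL, DBP, PER1, CRY2 and PER2, down to NR1D1 at 3.04. The order in the long bone was led by PER1 at 21.9, followed by CLOCK, NR1D2 at 17.9 and PER2 at 17.1, and NR1D1 was again lowest at 1.00. Neighbours in either order overlapped in range. NR1D1 in the long bone had the widest spread of all, from 0.161 in DPLBJ replicate 2 to 6.61 in DPLBA replicate 1, which is 41.1-fold. CLOCK in the pituitary had the narrowest, from 12.1 to 17.4, or 1.44-fold. One library, MHPJ replicate 2, held the lowest pituitary value of CLOCK, ARNTL, CRY1, NR1D1, NR1D2 and DBP, and the highest of PER1. This is the library with muscle genes.

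**Figure D1:**
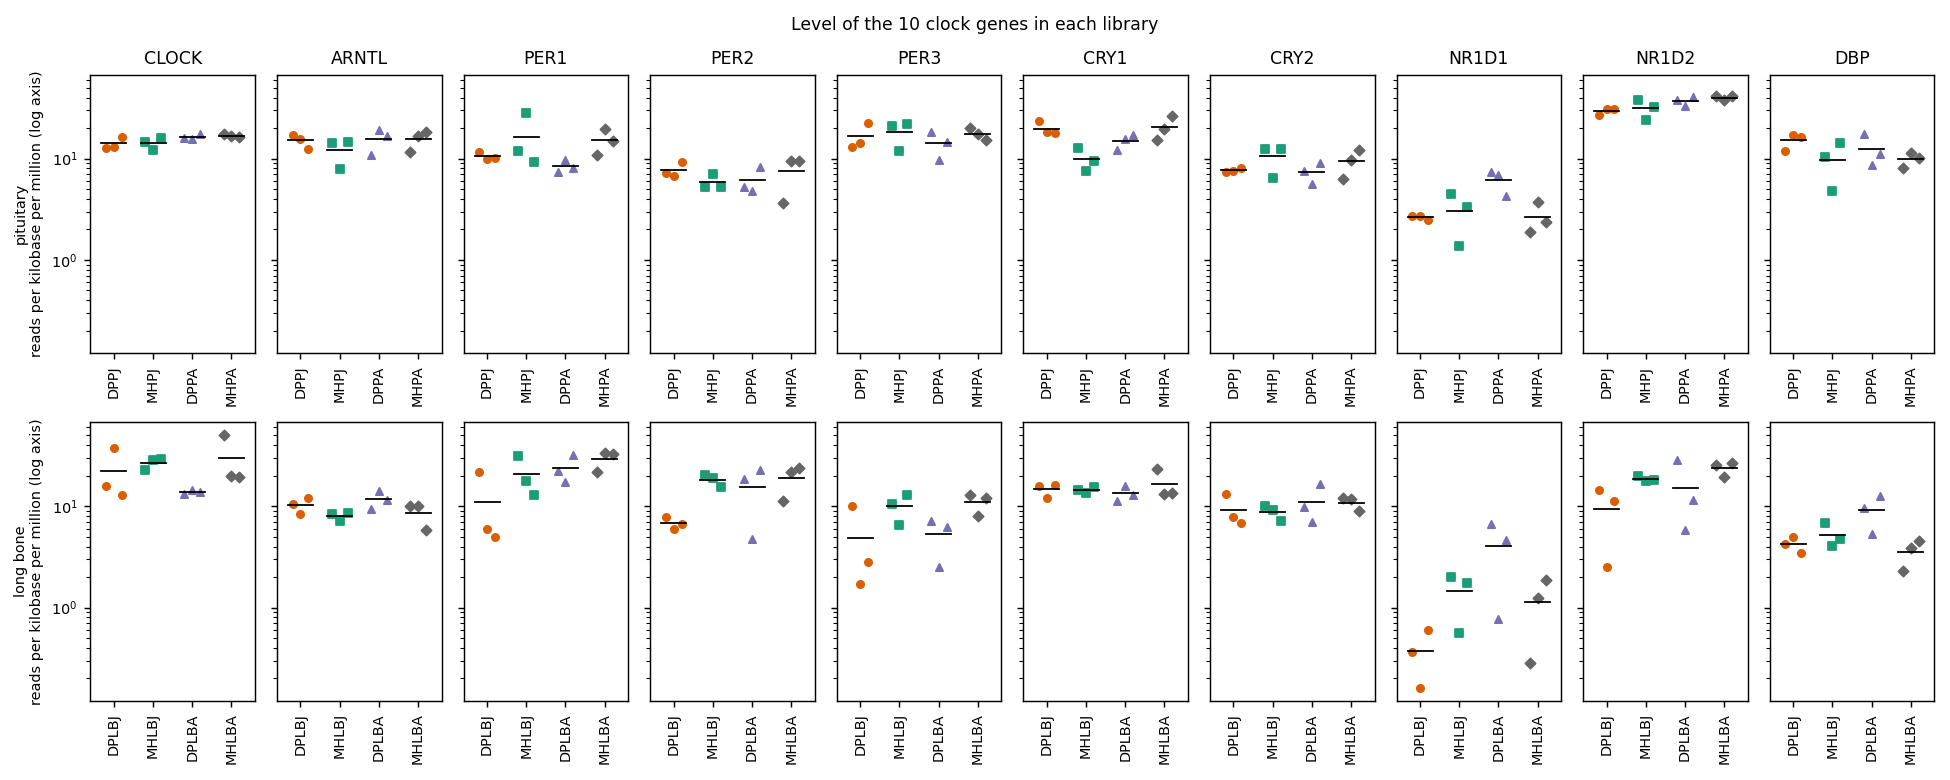
Level of each clock gene (columns) in the pituitary (upper row) and the long bone (lower row), in RPKM on a log axis. Each point is a library, in the order of replicates 1 to 3, and each line is the mean of a group. NR1D1 in the long bone spreads from 0.161 to 6.61, while CLOCK in the pituitary stays between 12.1 and 17.4.

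The number of clock genes called differed between the comparisons, and in most it was near the share of all genes called. Between breeds, 0 of 10 were called in the juvenile pituitary by edgeR, where 20.3% of all 14603 tested genes were. There 1 clock gene, CRY1, had a P under 0.05, DESeq2 called 0 and limma on log2 RPKM called 1, again CRY1. In the juvenile long bone 2 of 10 were called, PER2 and NR1D1, both lower in DPs, beside 13.8% of all genes. In the adult pituitary 1 of 10 was called, NR1D1, higher in DPs, beside 2.93% of all genes. In the adult long bone 3 of 10 were called, CLOCK and PER3 lower and DBP higher in DPs, beside 18.3%.

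Between the stages of DPs, NR1D1 was called in the pituitary (1 of 10, beside 3.56% of all genes) and NR1D1 and DBP in the long bone (2 of 10, beside 3.14%), all lower in juveniles. In MHs, CRY1 was called in the pituitary (1 of 10, beside 7.74%), lower in juveniles. In the MH long bone 0 of 10 were called, beside 2.91% of all genes, and 0 had a P under 0.05 in edgeR's test. DESeq2 and limma also called 0 there. No clock gene passed an adjusted p of 0.05 in any of these 8 comparisons by edgeR's test. Of all genes, 10.7% did between juvenile breeds in the pituitary, 0.0348% between adult breeds in the pituitary, 2.24% between adult breeds in the long bone and 0% in the other 5 comparisons. In the interactions with tissue, 4.88% of all genes did for the juvenile breeds, 0.116% for the adult breeds, 0.0065% for DP stages and 0.00654% for MH stages. The median log2 fold change of the 10 genes was -0.60 in the juvenile long bone, where that of all tested genes was 0.05, and -0.50 between the DP stages in the long bone, where that of all genes was 0.03. In the other 6 comparisons it lay between -0.31 and 0.15. ARNTL was not called in any comparison. The libraries of the 2 groups did not overlap for 1 clock gene in the juvenile pituitary (39.7% of all genes), 2 in the juvenile long bone (21.7%), 2 in the adult pituitary (17.6%) and 3 in the adult long bone (29.9%). Between stages they did not overlap for 4 in the DP pituitary (21.8%), 2 in the DP long bone (9.01%), 2 in the MH pituitary (17.6%) and 0 in the MH long bone (8.76%).

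**Figure D2:**
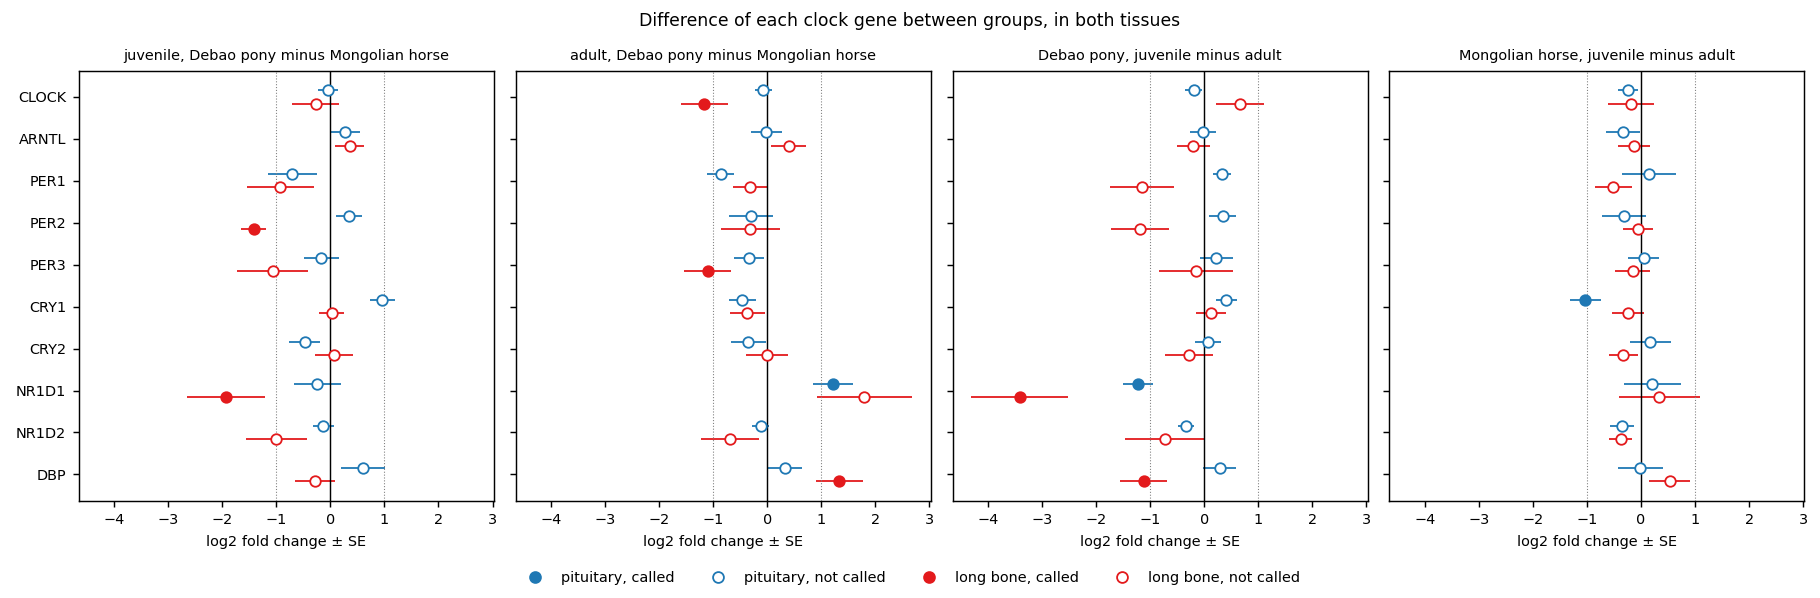
Log2 fold change of each clock gene with its standard error, for the breeds at each stage (left panels) and the stages of each breed (right panels), in the pituitary (blue) and the long bone (red), 3 libraries against 3. Filled points were called by edgeR's test, and dotted lines mark a fold change of 2. PER2 in juveniles stands at -1.42 in the long bone and 0.35 in the pituitary, and NR1D1 between the DP stages at -3.42 and -1.23.

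CLOCK (ENSECAG00000006331) and ARNTL (ENSECAG00000012118) make the activating pair. CLOCK in the adult long bone read 13.2, 14.5 and 14 RPKM in DPLBA replicates 1 to 3 and 50.7, 19.9 and 19.3 in MHLBA. The groups did not overlap, and MHLBA replicate 1 had the highest value. That library had the lowest TMM factor of all 24, 0.589, and in the deposited RPKM its CLOCK value was 24.3, beside 24.4 in DPLBJ replicate 2 and 23.6 in MHLBJ replicate 3. The log2 fold change was -1.16 (SE 0.43, adjusted p = 0.153 by edgeR's test), and without MHLBA replicate 1 it was -0.48 and not called. With limma on the log2 of the deposited RPKM it was -0.81 to -0.86 and not called. The call was also lost without DPLBA replicate 1 (-1.11), replicate 2 (-1.17) or replicate 3 (-1.17). MHLBA replicate 1 also had the lowest adipocyte sum of the long bone, at 1465 RPKM. In the adult pituitary CLOCK differed by -0.07 (SE 0.15) between breeds. The difference of these differences, pituitary minus long bone, was 0.98 (SE 0.46, adjusted p = 0.326 by edgeR's interaction test), which did not pass.

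ARNTL group means ran from 12.3 to 15.6 RPKM in the pituitary and from 8.02 to 11.7 in the long bone. It was 10.6, 8.37 and 12 RPKM in DPLBJ and 8.43, 7.09 and 8.52 in MHLBJ, where the ranges overlapped and the log2 fold change was 0.35 (SE 0.26). In the adult long bone the fold change was 0.40 (SE 0.33), and in the pituitary 0.27 (SE 0.27) for juveniles and -0.02 (SE 0.28) for adults. None of these had an unadjusted P under 0.05 in edgeR's test.

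PER2 (ENSECAG00000013247), a repressor of the CLOCK and ARNTL pair, gave the clearest difference of the 10 genes. In the juvenile long bone it read 7.82, 6 and 6.71 RPKM in DPLBJ and 20.2, 19.0 and 15.5 in MHLBJ. All 3 DP libraries lay well below all 3 MH libraries, and the spread within each group was small beside the gap. The log2 fold change was -1.42 (SE 0.235, 2.67-fold lower in DPs, adjusted p = 0.136 by edgeR's test). It was called without any 1 of the 6 libraries (-1.52 to -1.35), and under every other normalization, filter and tool tried (-1.64 to -1.39), but not where an adjusted p under 0.05 was required of edgeR's test.

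In the juvenile pituitary PER2 read 7.17, 6.70 and 9.27 RPKM in DPPJ and 5.29, 7.09 and 5.28 in MHPJ. Here the groups overlapped, and the fold change was 0.35 (SE 0.24, adjusted p = 0.350 by edgeR's test) in favour of DPs. The breed difference of PER2 thus differed between the tissues. The pituitary difference minus the long bone difference was 1.75 (SE 0.31, adjusted p = 0.0215 by edgeR's interaction test). PER2 was the only clock gene called in that interaction, in which 22% of 15417 tested genes were called and 4.88% had an adjusted p under 0.05. It was called without any 1 of the 12 libraries (1.60 to 1.98). All 3 MHPJ libraries lacked the anterior pituitary hormones, so tissue content and breed cannot be told apart in the pituitary side of this contrast.

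The 5 adipocyte genes ADIPOQ, PLIN1, FABP4, CIDEC and LEP were all called lower in DPLBJ than in MHLBJ by edgeR's test, with a median log2 fold change of -1.59, beside 13.8% of all genes called. Their summed level was between 2383 and 6086 RPKM in DPLBJ and between 9056 and 12337 in MHLBJ, with no overlap, and LEP was at 0 in DPLBJ replicate 2. Among the adults, DPLBA replicate 2 and MHLBA replicate 1 had the lowest sums of their groups, at 3041 and 1465, and also the lowest PER2 of their groups, at 4.78 and 11.2. The other 4 adult libraries had adipocyte sums between 6765 and 10641 and PER2 between 18.8 and 23.7. In the adults PER2 did not separate the breeds (-0.31, SE 0.55, adjusted p = 0.768 by edgeR's test). Muscle genes also differed between the juvenile groups, with sums of 0.707 to 1.01 RPKM in DPLBJ and 2.56 to 199.8 in MHLBJ, and CKM (-7.32, SE 1.82) and ACTA1 (-5.72, SE 1.86) were called lower in DPs. All 5 cartilage genes were called higher in DPs, with log2 fold changes of 4.45 to 10.5. Marrow genes ALAS2 (9.44), MPO (6.02) and CD79B (2.91) and osteoblast genes ALPL (2.64) and BGLAP (1.94) were also called higher. The osteoblast genes IBSP and SPP1 were not called. Of the genes called higher, only ALPL had no overlap. DPLBJ replicate 1 was low in cartilage and marrow genes (2.61 and 1.27 RPKM summed). The part of fat, muscle, cartilage, marrow and osteoblast cells in the PER2 difference was not tested.

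**Figure D3:**
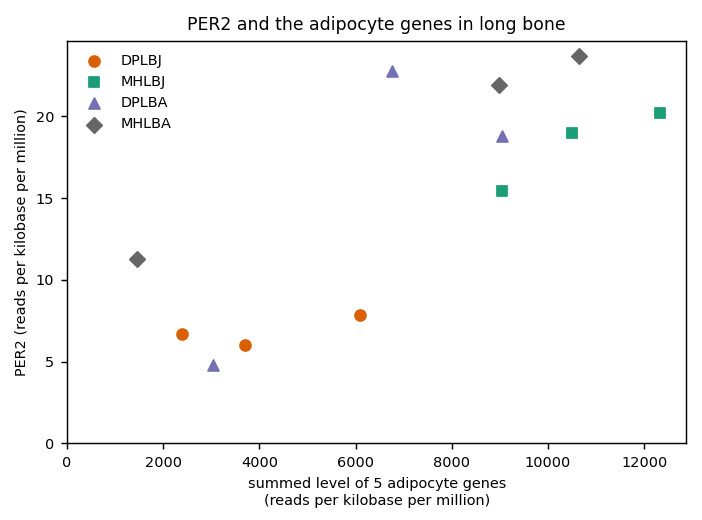
PER2 (vertical axis) against the summed level of 5 adipocyte genes (horizontal axis) in the 12 long bone libraries, both in RPKM. The 3 DPLBJ libraries and DPLBA replicate 2 lie at PER2 between 4.78 and 7.82 and sums up to 6086, and the 3 MHLBJ libraries at PER2 between 15.5 and 20.2 and sums from 9056 to 12337. MHLBA replicate 1 has the lowest sum, 1465, with PER2 at 11.2, which is 5.38 in the deposited RPKM. The remaining adult libraries lie at PER2 between 18.8 and 23.7 and sums from 6765 to 10641.

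Of 8 listed genes that glucocorticoids switch on, 7 were in the file, and 2 of these were called in the juvenile long bone, both lower in DPs, beside 13.8% of all genes. FKBP5, a co-chaperone of the glucocorticoid receptor, read 189, 120 and 167 RPKM in DPLBJ and 627, 856 and 351 in MHLBJ, a change of -1.95 on the log2 scale (SE 0.39, adjusted p = 0.136 by edgeR's test), with no overlap. ZBTB16 was the other (-2.47, SE 0.69). Of the 7, 5 had a negative value, with a median of -0.57, and DUSP1 (0.23) and ERRFI1 (1.36) had a positive one. The summed level of the 7 was between 260.2 and 579 in DPLBJ and between 673 and 1242 in MHLBJ. In the juvenile pituitary, where PER2 was not called, all 7 had a negative value, 2 were called (ZBTB16 and SGK1, beside 20.3% of all genes) and the median was -1.0. All 7 were negative in the adult long bone, and 4 were called, ZBTB16, KLF9, SGK1 and DUSP1, beside 18.3% of all genes. In the adult pituitary all 7 were negative and 1 was called, ZBTB16 (-1.15, SE 0.32), beside 2.93%. The immediate early genes, which answer stress and handling within minutes, were called lower in DPs for 3 of 10 in each juvenile tissue, beside 20.3% of all genes called in either direction in the pituitary and 13.8% in the long bone. In the adult long bone 4 of 10 were called lower and IER2 higher, beside 18.3%. The part of these responses in the PER2 difference was not tested.

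PER1 (ENSECAG00000013291) and PER3 (ENSECAG00000018928), the other PER repressors, had wider spreads. PER1 in the adult pituitary read 7.41, 9.73 and 8.15 RPKM in DPPA and 10.8, 19.7 and 15.1 in MHPA. All DP libraries lay below all MH libraries, but the log2 fold change of -0.86 (SE 0.25, adjusted p = 0.503 by edgeR's test) was under 2-fold and not called. With scaling by library size alone PER1 was called there and NR1D1 was not, and without MHPA replicate 1 both were called. In the juvenile pituitary PER1 ran from 9.84 to 11.6 in DPPJ, and in MHPJ it was 12, 28.2 and 9.27, with the high value in the library that held muscle genes. Juvenile long bone values were 21.9, 6 and 4.95 in DPLBJ, where replicate 1 stood above the other two, and 31.2, 17.9 and 12.9 in MHLBJ. The groups overlapped and the fold change was -0.93 (SE 0.62). Without DPLBJ replicate 1, PER1, PER3 and NR1D2 were called beside PER2, while NR1D1 was not.

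PER3 read 7.14, 2.51 and 6.18 RPKM in DPLBA and 12.8, 8.09 and 12.2 in MHLBA. The groups did not overlap, and the log2 fold change was -1.10 (SE 0.43, adjusted p = 0.171 by edgeR's test). The call was lost without DPLBA replicate 2 (-0.74), DPLBA replicate 3 (-1.23), MHLBA replicate 1 (-0.93) or MHLBA replicate 3 (-1.03). PER3 in the juvenile long bone was 10.0, 1.72 and 2.80 in DPLBJ and 10.6, 6.56 and 12.9 in MHLBJ, with overlap and a fold change of -1.07 (SE 0.65, adjusted p = 0.431 by edgeR's test). PER3 was thus at its lowest in DPLBJ replicates 2 and 3 and in DPLBA replicate 2. DPLBJ replicates 2 and 3 also held marrow blood cell genes, at 1318 and 649.6 RPKM summed, against 1.27 in DPLBJ replicate 1 and 1.30 to 14 in MHLBJ.

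CRY1 (ENSECAG00000014833), the repressor partner of the PER proteins, separated groups in the pituitary alone. It read 23.3, 18.2 and 17.8 RPKM in DPPJ and 12.6, 7.63 and 9.52 in MHPJ, and all DP libraries lay above all MH libraries. The log2 fold change was 0.96 (SE 0.23, adjusted p = 0.0514 by edgeR's test), just under 2-fold, so that it was not called. It was called without DPPJ replicate 3, without MHPJ replicate 1, with scaling by library size alone and with limma on log2 RPKM. In the adults CRY1 was 12, 15.8 and 17.2 in DPPA and 15.2, 19.7 and 26.2 in MHPA, with overlap. Within MHs, CRY1 was lower in juveniles than in adults without overlap (-1.03, SE 0.29, adjusted p = 0.369 by edgeR's test). That call was lost without MHPJ replicate 2 (-0.89), MHPJ replicate 3 (-1.0) or MHPA replicate 3 (-0.77). Both CRY1 differences share the MHPJ libraries, whose summed anterior pituitary level was at most 143 RPKM.

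In the long bone CRY1 group means stayed between 13.4 and 16.7 RPKM, and the breed difference in juveniles was 0.02 (SE 0.23). The interaction between breed and tissue was 0.91 (SE 0.33, adjusted p = 0.117 by edgeR's test), under 2-fold. CRY2 (ENSECAG00000000940), the second cryptochrome, had group means of 7.41 to 10.5 RPKM in the pituitary and 8.79 to 11.1 in the long bone. It was not called in any comparison, and its largest breed difference was -0.47 (SE 0.29) in the juvenile pituitary.

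NR1D1 (ENSECAG00000006267), the repressor that feeds back on ARNTL, changed between the stages of DPs in both tissues. In the pituitary it read 2.72, 2.72 and 2.47 RPKM in DPPJ and 7.40, 6.88 and 4.31 in DPPA. The juvenile libraries lay together below all adult libraries, and the log2 fold change was -1.23 (SE 0.28, 2.34-fold lower in juveniles, adjusted p = 0.419 by edgeR's test). It was called without any 1 of the 6 libraries (-1.43 to -1.06), including DPPA replicate 1, which nearly lacked anterior pituitary hormones (-1.06). With limma on log2(RPKM + 1) it was -0.81 and not called. In this comparison 4 of the 10 clock genes had groups that did not overlap, PER1, CRY1, NR1D1 and NR1D2, as did 21.8% of all tested genes.

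In the DP long bone NR1D1 was 0.363, 0.161 and 0.600 RPKM in DPLBJ, from 8, 4 and 19 reads, and 6.61, 0.766 and 4.69 in DPLBA. The groups did not overlap, although DPLBA replicate 2 was close to the juveniles. The log2 fold change was -3.42 (SE 0.89, 10.7-fold lower in juveniles, adjusted p = 0.988 by edgeR's test), and it was called without any 1 of the 6 libraries (-3.94 to -2.87). With limma the value was -1.44 on log2(RPKM + 1) and -2.71 on log2(RPKM + 0.1), scales that shrink the change of low genes. The stage difference of NR1D1 was larger in the long bone than in the pituitary by 2.24 (SE 0.94, adjusted p = 0.629 by edgeR's interaction test). With 1 library left out, it was called only without DPLBA replicate 2, DPLBJ replicate 3 or DPPA replicate 1, and lost without any of the other 9 libraries (1.71 to 2.33). DPLBA replicates 1 and 3 had cartilage sums of 1966 and 4469 RPKM, and DPLBA replicate 2 had 58.2. DPLBJ replicates 1 to 3 had 2.61, 1179 and 3824. The part of cartilage in the NR1D1 difference was not tested.

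Between breeds, NR1D1 in the juvenile long bone read 2.01, 0.564 and 1.75 RPKM in MHLBJ, so that MHLBJ replicate 2 fell among the DPLBJ values. The log2 fold change was -1.94 (SE 0.72, adjusted p = 0.234 by edgeR's test). The call was lost without DPLBJ replicate 1 (-1.91), DPLBJ replicate 2 (-1.59), MHLBJ replicate 1 (-1.64) or MHLBJ replicate 3 (-1.77), and with limma on log2(RPKM + 1). In adults the sign was the other way. NR1D1 in the pituitary was 1.90, 3.73 and 2.34 in MHPA, below all DPPA libraries, with a fold change of 1.21 (SE 0.37, adjusted p = 0.503 by edgeR's test). Without DPPA replicate 2 (1.13) or MHPA replicate 3 (1.11) it was not called. Without replicate 1 of both groups, the libraries low in anterior pituitary hormones, it was 0.85 and not called. In the adult long bone NR1D1 was 0.284, 1.24 and 1.89 in MHLBA, which overlapped DPLBA, and the fold change was 1.80 (SE 0.88, adjusted p = 0.256 by edgeR's test). NR1D1 lies next to THRA on the opposite strand in mammals, and whether the counting used the strand is not given in the sources used here.

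NR1D2 (ENSECAG00000007646), the paralog of NR1D1, was the most abundant clock gene of the pituitary, with group means of 29.4 to 40.1 RPKM. In the juvenile long bone it was 14.6, 2.54 and 11.2 in DPLBJ and 20.0, 17.7 and 18.1 in MHLBJ. All DP libraries lay below all MH libraries, but replicate 2 of DPLBJ stood far from the others, and the log2 fold change of -1.0 (SE 0.56, adjusted p = 0.396 by edgeR's test) was not called. In the adult long bone the values were 28.6, 5.81 and 11.5 in DPLBA and 25.5, 19.4 and 26.9 in MHLBA, with overlap. NR1D2 was called in no comparison of all libraries.

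DBP (ENSECAG00000014275), the output factor, moved in the adult DP long bone. It read 9.52, 5.36 and 12.6 RPKM in DPLBA, 2.29, 3.89 and 4.54 in MHLBA, and 4.29, 5.01 and 3.49 in DPLBJ. All DPLBA libraries lay above all libraries of both other groups. Against MHLBA the log2 fold change was 1.33 (SE 0.44, 2.52-fold higher in DPs, adjusted p = 0.126 by edgeR's test), and only without DPLBA replicate 3 (1.03) was it not called. DPLBJ against DPLBA gave -1.12 (SE 0.43, adjusted p = 0.988 by edgeR's test). That call was lost without DPLBA replicate 1 (-1.10), DPLBA replicate 3 (-0.81), DPLBJ replicate 1 (-1.11) or DPLBJ replicate 3 (-0.99). Both comparisons share the DPLBA libraries. These libraries also held marrow blood cell genes at 70.7 to 109 RPKM summed, against 1.01 to 6.63 in MHLBA. DPLBJ replicates 1 to 3 had 1.27, 1318 and 649.6. The part of marrow blood cells in the DBP differences was not tested.

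In the pituitary DBP did not separate the stages of DPs, with 12, 17.0 and 16.5 RPKM in DPPJ and 17.6, 8.64 and 11 in DPPA. The stage difference in the pituitary minus that in the long bone was 1.47 (SE 0.53, adjusted p = 0.629 by edgeR's interaction test). It was called without any 1 of the 12 libraries (1.16 to 1.75). In this interaction 4 of the 10 clock genes were called, PER1 (1.53, SE 0.68), PER2 (1.60, SE 0.65), NR1D1 and DBP, all with the lower value in the long bone, beside 5.7% of 15389 tested genes. With 1 library left out, PER1 was called only without DPLBA replicate 2 or DPLBJ replicate 1, and PER2 only without these or DPPA replicate 3, DPPJ replicate 1 or DPPJ replicate 2. PER1 and PER2 themselves did not pass in the DP long bone (-1.16, SE 0.59, and -1.19, SE 0.54). In MHs 0 of 10 were called in the same interaction by edgeR and by DESeq2, beside 7.02% of all genes, and 0 had a P under 0.05, while limma called 1, CRY1. The adult breed interaction also gave 0 of 10 in edgeR's test, beside 13.5% of all genes, with 0 at a P under 0.05. DESeq2 called CLOCK there.

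The balance of ARNTL against genes that peak at other times in the known loop was taken as a single value per library. It is log2 CPM of ARNTL minus the mean of NR1D1, NR1D2, DBP, PER1, PER2 and PER3. It is a description over the chosen genes and carries no test. A difference in clock phase cannot be told apart in it from lower levels of single genes or from tissue content. In the juvenile long bone the balance was 0.70, 1.69 and 1.57 in DPLBJ and -0.53, -0.067 and -0.14 in MHLBJ. Every DP library lay above every MH library. The 0 of this measure is set by the levels of the chosen genes, so only differences between libraries can be read from it. The means were 1.32 ± 0.54 and -0.24 ± 0.25 (SD, n = 3), a difference of 1.56, with a range of 1.38 to 1.87 as each library was left out. In the juvenile pituitary the means were 0.35 ± 0.36 in DPPJ and 0.081 ± 0.27 in MHPJ. The groups overlapped, and the difference was 0.27.

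Among adults the groups overlapped. In the long bone the balance was -0.61, 1.62 and -0.21 in DPLBA and 0.54, 0.020 and -1.10 in MHLBA, where the spread within a group was larger than the difference of 0.45 between them. In the pituitary DPPA had a mean of 0.32 ± 0.59 and MHPA of 0.34 ± 0.21 (SD, n = 3), a difference of -0.014. Between stages the balance differed by 1.05 in the DP long bone, by 0.033 in the DP pituitary, by -0.25 in the MH pituitary and by -0.063 in the MH long bone. With ARNTL set against NR1D1 alone, the adult DP means lay below the MH means, by -1.23 in the pituitary and -1.18 in the long bone. In the pituitary the libraries did not overlap (0.85 to 2.26 in DPPA and 2.45 to 3.26 in MHPA), and in the long bone they did (0.82 to 4.41 in DPLBA and 1.89 to 5.19 in MHLBA). The juvenile long bone difference was 2.10 on that measure. Most of the 1.56 came from the subtracted genes, since ARNTL itself differed by 0.35.

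**Figure D4:**
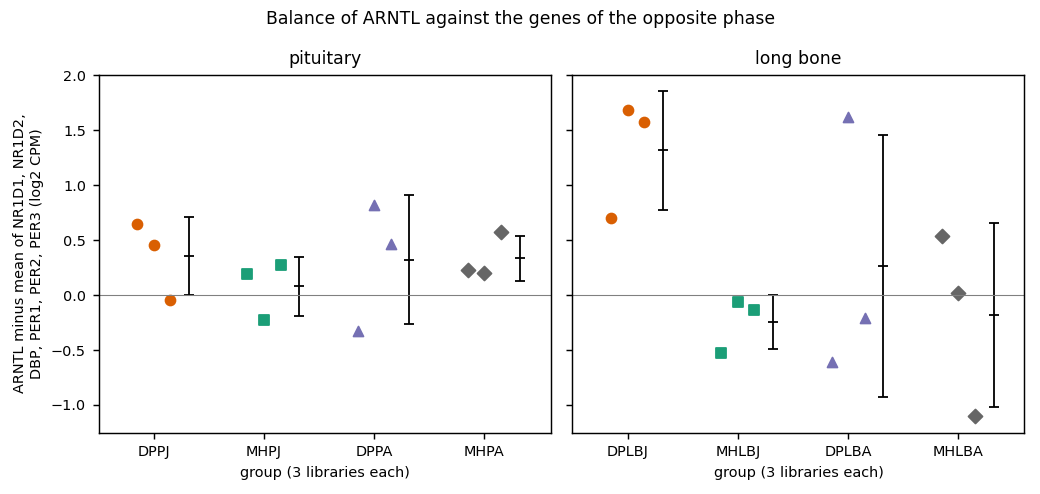
Balance of ARNTL against NR1D1, NR1D2, DBP, PER1, PER2 and PER3 in each library, in log2 CPM, for the pituitary (left) and the long bone (right). Points are libraries, and the bar beside them is the mean ± SD of 3. DPLBJ lies between 0.70 and 1.69 and MHLBJ between -0.53 and -0.067, while all other groups overlap with their partners.

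Pairs of clock genes with a known phase relation were compared across the 12 libraries of each tissue. NR1D1 and DBP, which peak together, varied together in the long bone, with Pearson's r = 0.758 (permutation p = 0.00375, adjusted over 6 correlations 0.0225) and Spearman's rho = 0.650 (permutation p = 0.0262, adjusted 0.157). The permutations ran over all 12 libraries without regard to group. They do not allow for differences between group means, so these p-values may be too small. After removal of DPLBA replicate 1 and DPLBJ replicate 2, the 2 libraries with the most extreme NR1D1, r was 0.833. With the group means removed it was 0.735 with the groups pooled. This did not hold in every group. In DPLBJ replicates 1 to 3 the order was reversed, with NR1D1 at -0.36, -1.29 and 0.28 log2 CPM and DBP at 2.80, 3.02 and 2.51. In the pituitary r was 0.452 (permutation p adjusted 0.360) and 0.700 with group means removed. No p is given for values with group means removed, because they are tied within a group and free permutation makes the p too small. DBP ranked 127th of 14734 genes by its r with NR1D1 in the long bone, PER2 306th and PER1 1074th, and in the pituitary DBP ranked 2337th of 15199. PER2 and PER1 had a negative r with NR1D1 in the pituitary, -0.207 (rank 10772) and -0.610 (rank 14610).

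ARNTL did not run against NR1D1 or DBP. Its r with NR1D1 was 0.413 in the pituitary and -0.062 in the long bone, and with DBP 0.333 and 0.098, and each of these had an adjusted permutation p above 0.05. With the group means removed, the long bone values were -0.33 with NR1D1 and -0.53 with DBP. CRY1 was the clock gene most like ARNTL in the pituitary (r = 0.741, rank 557). The 5 genes most like NR1D1 over the 12 libraries were RXRA, ISLR, SLC16A11, ACTR1B and MYL3 in the long bone (r from 0.899 to 0.926) and CHAF1B, YLPM1, PCDHGB4, LASP1 and RNF168 in the pituitary (r from 0.892 to 0.922). Those most like ARNTL were VLDLR, ENHO, SLC13A5, CHPF and CREB3L1 in the long bone (r from 0.873 to 0.920) and LIPT2, TRNT1, INTS9, XKR7 and SH3BP5L in the pituitary (r from 0.905 to 0.919). These are the highest among the tested genes with a symbol in each tissue, and the lists are a description.

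**Figure D5:**
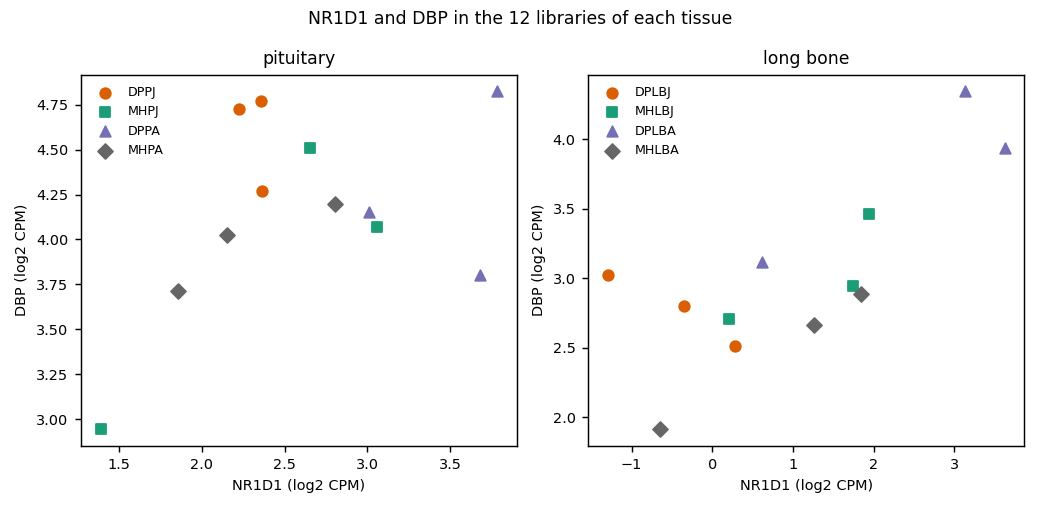
DBP against NR1D1, both in log2 CPM, in the 12 libraries of the pituitary (left) and of the long bone (right), marked by group. The long bone libraries follow a rising line (r = 0.758), with DPLBA replicates 1 and 3 at the top right, and the pituitary libraries scatter more widely (r = 0.452).

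Pituitary and long bone libraries that carried the same breed, stage and replicate number were set side by side, 12 pairs in all. The labels do not say that a number marks one animal. Over these pairs r between the tissues ran from -0.17 for CLOCK to 0.605 for NR1D1, and it was positive for 9 of the 10 genes. With the group means removed it ran from -0.23 for CRY1 to 0.635 for PER2 and was positive for 8 of 10.

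The wider clock machinery was counted over 22 further genes, of which 21 were in the file. In the juvenile pituitary 4 of 21 were called, beside 20.3% of all genes, among them TIMELESS higher and NPAS2 and PPARGC1A lower in DPs, and the median of the list was -0.29. NPAS2, a paralog of CLOCK that can take its place beside ARNTL, was called lower in DPs in both juvenile tissues. It read 2.89, 2.55 and 1.74 RPKM in DPPJ and 7.60, 6.30 and 14.1 in MHPJ (-1.99, SE 0.39, adjusted p = 0.0331 by edgeR's test). In the long bone it was 2.72, 1.87 and 2.47 in DPLBJ and 8.96, 3.35 and 11.8 in MHLBJ (-1.79, SE 0.50, adjusted p = 0.165 by edgeR's test). In neither tissue did the groups overlap, and the breed difference differed between tissues by -0.24 (SE 0.66). The anterior pituitary genes summed to at most 143 RPKM in MHPJ, against at least 41918 in DPPJ. The MH stage call of NPAS2 given below rests on the same MHPJ libraries. The part of tissue content in the NPAS2 differences was not tested.

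TIMELESS, which works in DNA replication as well as beside the clock proteins, was called higher in DPs in both juvenile tissues. It read 21.3, 25.9 and 17.8 RPKM in DPPJ and 0.863, 1.91 and 0.601 in MHPJ (4.22, SE 0.52, adjusted p = 0.0143 by edgeR's test). In the long bone it was 7.76, 24.5 and 20.6 in DPLBJ and 1.40, 4.40 and 3.15 in MHLBJ (2.56, SE 0.58, adjusted p = 0.143 by edgeR's test). No DP library overlapped an MH library in either tissue. The 2 highest juvenile long bone values were in DPLBJ replicates 2 and 3, which held marrow blood cell genes at 1318 and 649.6 RPKM summed, against 1.27 in DPLBJ replicate 1. In the adult pituitary TIMELESS was 1.54 in MHPA replicate 1, which lacked the anterior pituitary hormones, and 16.5 to 81.3 in the other MHPA libraries and DPPA replicates 2 and 3. DPPA replicate 1, also low in those hormones, read 14.2. The part of tissue content in these differences was not tested.

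In the juvenile long bone 2 of 19 tested genes were called, the pair just described, beside 13.8% of all genes. In the adult pituitary edgeR called 0 of 21, beside 2.93% of all genes, with 1 at a P under 0.05. In the adult long bone 4 of 20 were called, beside 18.3% of all genes, among them BHLHE41 (1.83, SE 0.73) higher and HLF (-1.75, SE 0.59) and PPARGC1A (-4.21, SE 1.26) lower in DPs, and the median was -0.44. PPARGC1A reached 26.7 RPKM in MHLBA replicate 1, the library with the lowest TMM factor, and at most 1.59 in the other 5. HLF, a factor of the DBP family, thus had the opposite sign to DBP. Between stages, DPs gave PPARGC1A in the pituitary (-1.13, SE 0.33), beside 3.56% of all genes called. In the DP long bone BTRC (1.02, SE 0.31), TIMELESS (1.31, SE 0.45) and NPAS2 (-1.17, SE 0.42) were called, beside 3.14%. MHs gave NPAS2 (2.04, SE 0.55) and TIMELESS (-3.63, SE 1.06) in the pituitary, beside 7.74%, and PPARGC1A (-3.17, SE 1.25) in the long bone, beside 2.91%. In the interactions with tissue the calls for the adult breeds included HLF and PPARGC1A (1.69, SE 0.70, and 3.94, SE 1.48), beside 13.5% of all genes. For DP stages they included BTRC and TIMELESS (-1.51, SE 0.30, and -2.12, SE 0.80), beside 5.7%. For MH stages they included TEF, TIMELESS and PPARGC1A (1.14, SE 0.47, -2.95, SE 1.31, and 3.9, SE 1.56), beside 7.02%. FBXL21 was also called for the juvenile breeds, beside 22% of all genes, and for MH stages. It had at most 1 read in any MHLBJ library, so that no fold is given. ARNTL2, BHLHE40, RORA, RORB, NFIL3, CSNK1D, CSNK1E, FBXW11, GSK3B, SIRT1 and USP2 were called in none of the 12 tests.

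Of the listed genes of melatonin and day length, only TPH1 was called within a tissue. In the juvenile pituitary it was higher in DPs (2.23, SE 0.47), with EYA3 and ASMT also tested, beside 20.3% of all genes called. In the adult long bone it was lower in DPs (-1.22, SE 0.46), with EYA3, DIO3 and ASMT also tested, beside 18.3%. In the MH pituitary it was lower in juveniles than adults (-2.66, SE 0.89), with EYA3 and ASMT also tested, beside 7.74%. In the pituitary TPH1 was between 1.93 and 4.61 RPKM in the 5 libraries that nearly lacked anterior pituitary hormones and between 12.8 and 39.7 in the other 7, and the part of tissue content in its differences was not tested. AANAT, the enzyme that makes the night rise of melatonin in the pineal gland, was at 0 in 10 of the 12 pituitary libraries and reached 0.39 RPKM in MHPA replicate 1.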

How the data were processed

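RNA-seq of 24 libraries was used, 12 of pituitary and 12 of long bone epiphysis, in 8 groups of 3 taken from the labels. Libraries were directional and depleted of ribosomal RNA. The authors removed reads under 30 bp with Btrim and mapped the rest to EquCab 3.0. The submitters' processing notes name bcl2fastq, TopHat2 and edgeR, and the study's methods name Salmon for transcript values. Which tool made the whole-number counts per gene is not given in the sources used here. The deposited read table holds raw counts per gene for 24232 genes, with replicates not pooled. The deposited RPKM table holds the authors' values, scaled for gene length and library depth, for 24248 genes, and was used only in the alternatives.

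Counts were tested with edgeR 4.0.16 (R 4.3.3) by the quasi-likelihood test, after filterByExpr with a minimum count of 10 and TMM scaling, with the 2 groups compared in each fit, or 4 for an interaction of the contrast with tissue. A call needed P under 0.05 and a fold change over 2. Printed levels are RPKM computed from the counts, and log2 CPM used a prior count of 2. Alternatives were no filter, RLE factors, library size alone, DESeq2 1.42.0, a replicate block, all libraries in one fit, an adjusted p under 0.05, limma 3.58.1 on log2(RPKM + 1) and log2(RPKM + 0.1), and leaving out each library. Leaving out replicate 1 of both adult pituitary groups was chosen after seeing the data. Correlations used 100000 permutations (SciPy 1.17.1, Python 3.11.15, NumPy 2.4.6), and figures matplotlib 3.10.9. The script was tested on simulated data. P-values measure the spread between these libraries, part of which may be technical.

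The named genes were the 10 clock genes, the called members of the further clock list, and the 5 genes per tissue, among those with a symbol, most correlated with NR1D1 and with ARNTL. Some members of the further clock list are not reported here. Members and lists (further clock, glucocorticoid-responsive, immediate early, melatonin and day length, and markers of cell types) were chosen with earlier results of these data known. The deviations of same-numbered libraries correlated over 0.1 in all 3 pairs of DPPA against MHPA (0.359 to 0.643), where replicate 1 of both groups was low in anterior pituitary hormones, so the numbers paired these libraries. In no other comparison did all 3 pairs pass. In all, 7 of 24 pairs within a tissue and 2 of 12 between tissues did.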

Additional observations from a re-analysis of the deposited data

Results flagged for a closer look

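In 5 results the same contrast differed between the tissues by edgeR's interaction test, with P under 0.05 and more than 2-fold. The juvenile breed difference of PER2 was higher in the pituitary than in the long bone by 1.75 on the log2 scale (adjusted p = 0.0215 by edgeR's test). The stage difference of DPs was higher in the pituitary by 1.53 for PER1, 1.60 for PER2, 2.24 for NR1D1 and 1.47 for DBP, with adjusted p from 0.629 to 0.638 by edgeR's test. These 4 values rest on the same 12 libraries. PER2 in juveniles and DBP between stages were called without any 1 of their libraries.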

How the results depend on the processing

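With 3 libraries a group, counts of called clock genes moved with the settings. Requiring an adjusted p under 0.05 left 0 in every comparison but the juvenile breed interaction, which had 1. Scaling by library size alone gave 1 in DPPJ against MHPJ, 3 in the juvenile breed interaction and 1 in the MH stage interaction. RLE factors gave 0 in MHPJ against MHPA, as did DESeq2, which gave 1 in the adult breed interaction. DPLBJ against DPLBA gave 4 both with no filter and with all libraries in one fit, and one fit gave 2 in the juvenile breed interaction. With limma on log2(RPKM + 1), the count was 1 in DPPJ against MHPJ, DPLBJ against MHLBJ, DPLBA against MHLBA and the MH stage interaction, 0 in DPPA against MHPA and DPPJ against DPPA, 3 in the juvenile breed interaction and 2 in the DP stage interaction. With limma on log2(RPKM + 0.1) it was 1 in DPPJ against MHPJ, DPLBA against MHLBA and the MH stage interaction, 3 and 2 in the juvenile breed and DP stage interactions. Without replicate 1 of both groups, DPPA against MHPA gave 0. The cause was not tested.

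The replicate block gave 4 in DPLBJ against MHLBJ and 1 in DPLBJ against DPLBA, where the libraries share only a number. For an interaction the block joined the pituitary and long bone libraries of the same breed, stage and number. The labels do not say that these come from one animal. It gave 2 in the juvenile breed interaction and 1 in the adult breed interaction. In DPPA against MHPA, the one comparison whose numbers paired the libraries, the block gave 1, again NR1D1 (1.21), and changed no call.

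Leaving out each library gave counts of 0 to 1 in DPPJ against MHPJ, MHPJ against MHPA and the adult breed and MH stage interactions, 1 to 4 in DPLBJ against MHLBJ and the DP stage interaction, 1 to 2 in the juvenile breed interaction, 0 to 2 in DPPA against MHPA, 0 to 3 in DPLBA against MHLBA, 1 to 3 in DPLBJ against DPLBA, 1 in DPPJ against DPPA and 0 in MHLBJ against MHLBA. The balance differed by 0.12 to 0.47 in DPPJ against MHPJ, 1.38 to 1.87 in DPLBJ against MHLBJ, -0.26 to 0.31 in DPPA against MHPA, -0.23 to 0.89 in DPLBA against MHLBA, -0.29 to 0.28 in DPPJ against DPPA, 0.61 to 1.73 in DPLBJ against DPLBA, -0.35 to -0.10 in MHPJ against MHPA and -0.52 to 0.30 in MHLBJ against MHLBA. With ARNTL against NR1D1 alone it was 2.10 in DPLBJ against MHLBJ, -1.23 in DPPA against MHPA, -1.18 in DPLBA against MHLBA, 1.16 in DPPJ against DPPA and 2.73 in DPLBJ against DPLBA.

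The correlation of ARNTL and DBP changed sign as Spearman's rho (-0.070 in the pituitary, -0.014 in the long bone), without the 2 farthest libraries in the pituitary (-0.15) and with group means removed in the long bone (-0.53). That of ARNTL and NR1D1 in the long bone changed sign without the 2 farthest libraries (0.14) and on log2(RPKM + 0.1) (0.28). For NR1D1 and DBP, rho in the long bone was 0.650 and lost its adjusted p. With group means removed, r in the pituitary was 0.700, and no p is given for it. Of the 120 fold changes of clock genes, 14 changed sign with library size alone and 1 with RLE factors, none of them called, while library size alone shifted the median of all genes by -0.33 to 0.36. Few reads limit NR1D1 in the long bone, with 4 to 197 a library.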
